A study of Gallus gallus with 9 samples.

Results

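The comparison described here set the amacrine cell layer of chicks that wore a minus lens against that of untreated chicks, gene by gene. It used 6 of the 9 arrays of the study, the 3 titled as minus lens tissue and the 3 titled as control tissue. The features were the chicken probe sets of the Affymetrix Chicken Genome array with a signal of log2 4 or more on 3 or more of the 9 arrays, which kept 12975 of 37693. They held 7130 named genes, each read from its brightest probe set unless stated otherwise.

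Chicks of the minus lens group wore a lens of -7 D over 1 eye for 24 h, chicks of the plus lens group wore one of 7 D for the same time, and age-matched controls wore none. All were kept with 500 lux of light for 12 h a day. The layer was taken from retinal sections of 10 µm by laser capture, and the 10 to 100 ng of total RNA so obtained was amplified in a pair of successive rounds before labelling. Each condition had 3 chicks and 3 separately prepared samples, with no statement of which sample came from which bird, so p-values cover only the variation among these preparations, some of which may be technical. The group of the minus lens arrays was read from their titles, because their source label mentions lenses of both signs. Plus lens arrays entered the same fit and are quoted only beside minus lens values. In captured tissue, fewer cells of a type and less RNA per cell cannot be told apart.

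A minus lens throws the image behind the retina, and the chick eye answers by growing longer, whereas a plus lens slows that growth. The sign of defocus is read within the retina itself. Amacrine cells, the inhibitory interneurons between bipolar and ganglion cells, are central to that reading in chicks: they use GABA or glycine together with peptides or dopamine, and those that hold glucagon alter their content of the immediate early factor EGR1 (ZENK in birds) with the sign of the lens. Dopamine and retinoic acid are other retinal signals tied to eye growth.

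The captured tissue carried amacrine cell transcripts. Of 22 amacrine markers 16 passed the filter, and their summed signal was log2 15.95 to 16.08 on the controls and 15.76 to 15.97 on the minus lens arrays. GAD1, which makes GABA, read log2 14.17, 14.38 and 14.24 on control replicates 1 to 3 and 14.14, 14.07 and 14.15 on minus lens replicates 1 to 3. Values given in threes below follow that order. PAX6, a homeobox factor of amacrine cells, read 13.15, 13.10 and 13.12 against 13.16, 13.19 and 13.00. The PAX6 groups overlapped, and the log2 difference of -0.01 (SE 0.08) became 0.05 without minus lens replicate 3. TH, the dopamine enzyme, lay just outside the filter, with log2 4.37, 3.83 and 3.87 on the controls and 3.86, 3.87 and 3.91 under the minus lens. S100A10 lay just inside it, with 4.29, 3.98 and 4.25 against 4.55, 4.63 and 4.58. FOS stayed near log2 3.5 on the 6 arrays and was not tested, and no value is given for the peptide SST.

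Minus lens replicate 3 stood apart before any gene was examined. Its mean correlation with the other arrays was 0.953, against 0.971 to 0.975 for the rest, and limma's arrayWeights gave it a weight of 0.300. Of the tested probe sets 65.3% lay outside the range of the 3 controls on this array, 5345 of them below, against 49.6% to 52.0% on the other minus lens arrays. Its hybridisation controls averaged log2 13.33, the highest of the 9 arrays, and the 5' probe set for elongation factor 1 read 6.06, the lowest, with 12.84 for the matching 3' probe set. The control probe sets for GAPDH were lowest on this array at both ends, with 10.94 at 5' and 15.26 and 14.07 at 3'. For actin the 5' reading of 3.91 lay within the range of the other arrays, and the 3' reading of 11.3 was the lowest. The part of RNA quality in these readings was not tested. Differences are therefore given with all arrays and again without this one. Where a second value follows a difference directly in brackets, it is the same difference without minus lens replicate 3.

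One gene passed with all arrays, and a different gene passed without replicate 3. LOC425969 fell, with log2 6.24, 5.95 and 6.02 on the controls and 4.24, 3.84 and 4.23 under the minus lens. The groups did not overlap, and the log2 difference was -1.97 (SE 0.18), 3.91-fold lower (adjusted p = 0.0285). The treated readings lay close to the filter level of log2 4, and the processing compresses dim signal. The 3.91-fold figure also depends on the scale: as log2 of the value plus 16, the LOC425969 difference was smaller, -1.32. An added constant of that size itself shrinks differences between dim readings, so the -1.32 does not measure the compression by the processing. On the scale used throughout, without replicate 3 the LOC425969 difference was -2.03 and the adjusted p 0.0736. Dropping a single control, whichever it was, also took LOC425969 past the threshold of 0.05, to an adjusted p of 0.186 to 0.244. The same held for minus lens replicate 2 (0.0547) and plus lens replicates 1 and 3 (0.0938 and 0.0950). GFRA1, a co-receptor through which neurons bind glial cell line-derived neurotrophic factor, read 8.36, 8.52 and 8.38 on the controls and 10.38, 10.62 and 9.69 under the minus lens. Every minus lens array was above every control, with replicate 3 the lowest of the treated arrays. With all arrays the GFRA1 difference was log2 1.81 (SE 0.24, adjusted p = 0.166), and without replicate 3 GFRA1 rose by log2 2.08 (adjusted p = 0.0358). Each of these calls covers 0.00771% of the 12975 probe sets.

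Both genes had a similar reading under the plus lens, whose comparison shares the controls. LOC425969 read 4.62, 4.15 and 4.61 on the plus lens arrays and GFRA1 10.63, 10.10 and 10.27. The direct difference, minus lens minus plus lens, was log2 -0.36 for LOC425969 (adjusted p = 0.726) and -0.10 for GFRA1 (adjusted p = 0.934). Neither passed, which does not show that the lenses act alike. The plots of single arrays show these 2 genes and 10 others. RefSeq, in its table for assembly GRCg7b, lists LOC425969 with the synonym EDWM on chromosome 25. Its neighbours there include EDCH3, EDMPN2, EDSC, JAC1, S100A12 and S100A6, genes of the avian epidermal differentiation cluster, which is known for proteins of skin and feathers. Only JAC1, S100A12 and S100A6 of its 20 neighbours had a probe set, and none of these passed the filter.

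**Figure D1:**
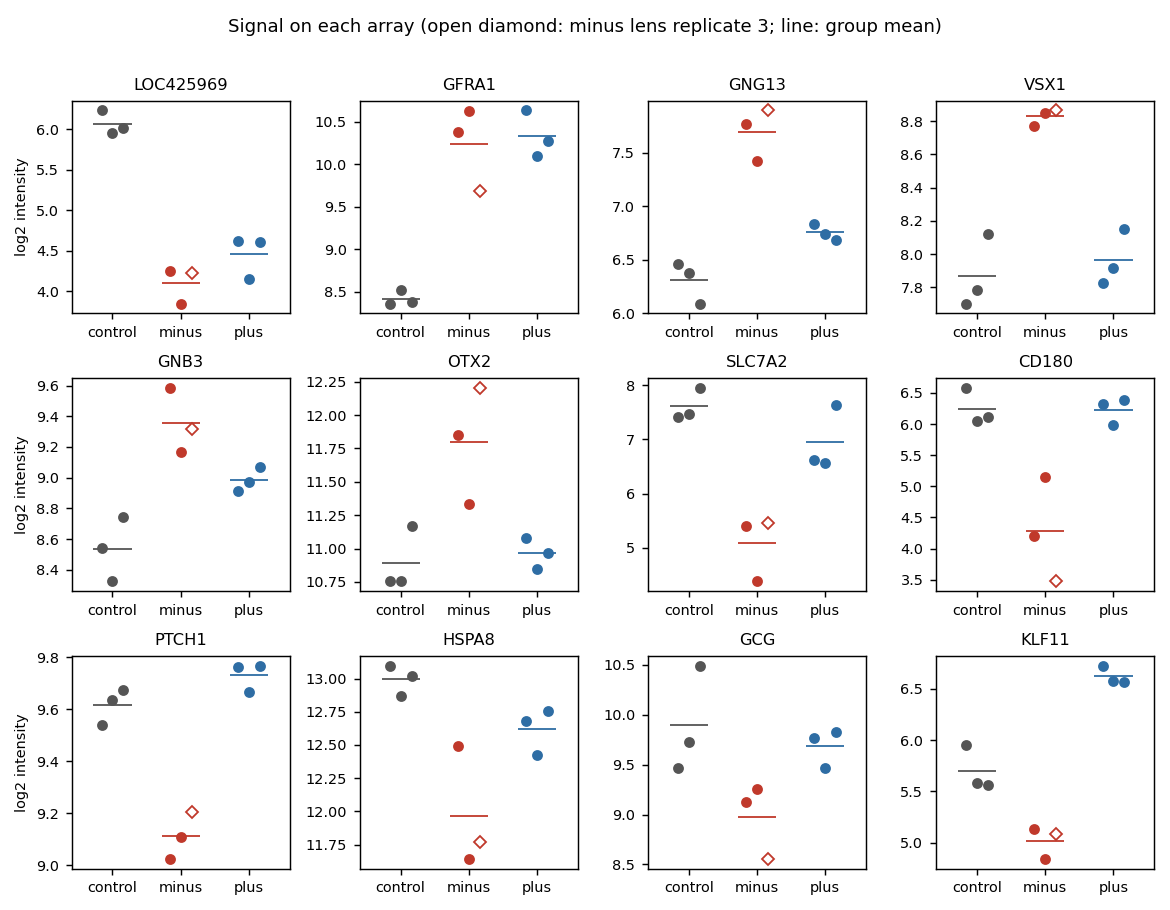
Log2 intensity of 12 genes on the 9 arrays, one panel per gene with its own vertical axis; points are arrays, lines are group means, and the open diamond is minus lens replicate 3. LOC425969 is low under both lenses, GFRA1 is high under both, and VSX1, OTX2, SLC7A2, CD180 and PTCH1 have minus lens arrays apart from the controls.

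Across the 12975 probe sets, the signal moved little. At an unadjusted p under 0.05 there were 912 (7.03%), of which 380 were higher and 532 lower. Without replicate 3 there were 974 (7.51%), of which 551 were higher and 423 lower, so the balance of directions turned with that array. The groups did not overlap for 10.0% of probe sets, and for 20.3% without replicate 3, where fewer arrays have to stay apart. A 2-fold difference or more was seen for 61 probe sets upward and 90 downward (1.16%), and for 75 and 65 without replicate 3 (1.08%). Over the 7130 genes the middle of the differences was log2 -0.03, and 0.02 without replicate 3. From the 5th to the 95th percentile they ran from -0.48 to 0.42, with a median SE of 0.19.

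**Figure D2:**
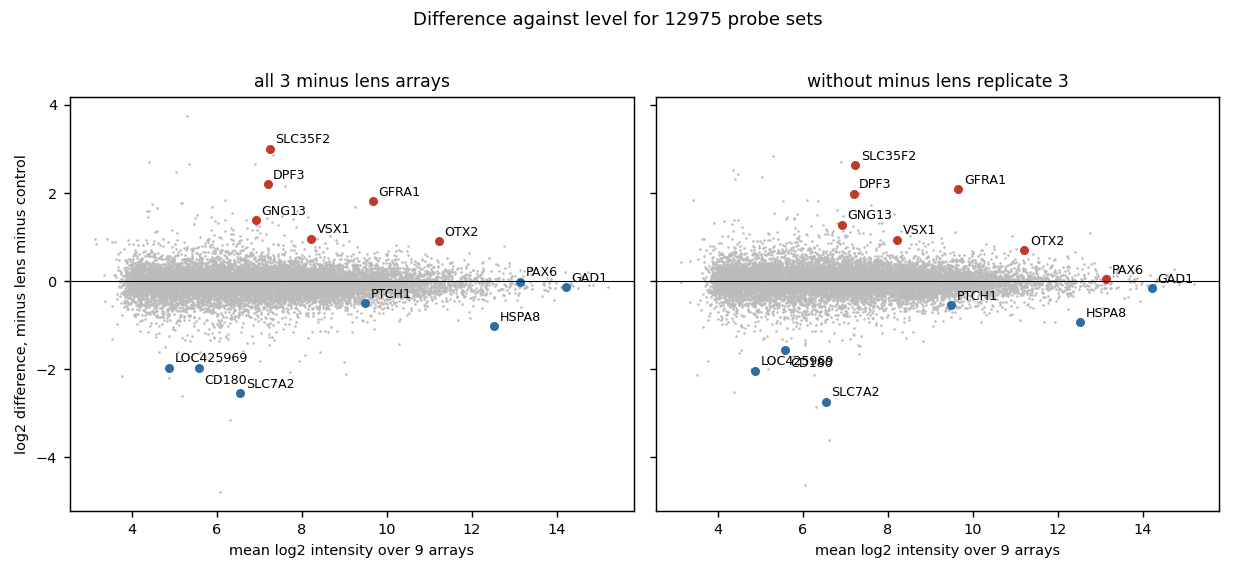
Log2 difference, minus lens minus control, against mean log2 intensity over 9 arrays for 12975 probe sets, with all 3 minus lens arrays (left) and without replicate 3 (right). Named genes are red when higher and blue when lower; GFRA1, SLC35F2 and SLC7A2 keep their place in both panels, while PAX6 and GAD1, bright amacrine genes, lie near 0.

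Among the genes next in order of p, none of which passed with all arrays, several that lay higher belong to bipolar cells, which feed amacrine cells. GNG13, a G protein gamma subunit of ON bipolar cells, read log2 6.45, 6.38 and 6.09 on the controls and 7.76, 7.42 and 7.90 under the minus lens. The lowest treated array lay well above the highest control, with a difference of 1.39 (SE 0.16, adjusted p = 0.122), and 1.28 without replicate 3 (adjusted p = 0.260). VSX1 encodes a homeobox factor that bipolar neurons use, and it read 7.70, 7.78 and 8.12 against 8.77, 8.85 and 8.87. The 3 treated arrays lay close together, above all controls, and the difference was 0.96 (SE 0.14, adjusted p = 0.275), and 0.94 without replicate 3. GNB3, a G protein beta subunit of cones and ON bipolar cells, read 8.54, 8.32 and 8.75 against 9.58, 9.17 and 9.31 (difference 0.82, and 0.84 without replicate 3), and its other probe set differed by 0.45 (0.26). OTX2, a homeobox factor of photoreceptors, bipolar cells and pigment epithelium, read 10.76, 10.75 and 11.17 against 11.85, 11.33 and 12.20. Its difference of 0.90 was 0.70 without replicate 3, and a dimmer probe set differed by 0.49 (0.37).

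The list of bipolar markers, which holds these genes, was mixed gene by gene. Of 17 measured out of 31 listed, 8 were higher and 9 lower, 5 without overlap upward, where 5.13% of all genes were, and 1 downward, where 5.15% of all genes were. The median was log2 -0.00, and 0.05 without replicate 3. Relative to the control mean, the list averaged -0.05, -0.06 and 0.11 on the controls and 0.27, 0.21 and 0.27 under the minus lens. It averaged -0.06, 0.05 and 0.03 on the plus lens arrays. The minus lens means did not overlap the control means, and they include the genes named above. Such a gap was not particular to the bipolar list. Means without overlap were also lower for the glutamate, adhesion and BMP and TGF-beta lists, among others, and higher for the GDNF list. TMEM215, also a bipolar marker, read 9.21, 9.39 and 9.54 on the controls and 8.45, 9.06 and 8.38 under the minus lens, lower on each treated array (difference -0.75, and -0.63 without replicate 3). SCGN, a calcium-binding protein, differed by 0.39 (0.32). The summed signal of the list was log2 12.99 to 13.23 on the controls and 13.27 to 13.54 on the minus lens arrays, and the defining ON bipolar receptor gene GRM6 was not among those measured. The pigment epithelium markers, 5 of 16 measured, summed to 10.89 to 11.37 against 11.41 to 12.35, and OTX2 is one of them. Neither of these sums overlapped between the groups. The pigment epithelium sum lay close to OTX2 alone, which read log2 10.75 to 11.17 on the controls and 11.33 to 12.20 under the minus lens. Of the 5 pigment epithelium genes only OTX2 was higher without overlap, and MITF was lower without overlap, at -0.43 (-0.61). OTX2 is on both lists and enters both sums, so they are not separate readings. The bipolar sum also holds the other genes named above, so neither sum is a further result on a cell type. Photoreceptor markers, 4 of 46 measured, overlapped, with 7.54 to 8.10 against 7.59 to 7.99. The part of other captured cells in these differences was not tested. On the plus lens arrays the differences from the same controls were 0.45 for GNG13, 0.10 for VSX1, 0.45 for GNB3 and 0.07 for OTX2.

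Other genes that lay higher had various roles. SOUL, a haem-binding protein, read log2 5.44, 5.34 and 5.45 on the controls and 6.09, 6.67 and 6.93 under the minus lens (difference 1.15, SE 0.20, adjusted p = 0.452). NSMCE3, a subunit of the SMC5 and SMC6 complex of chromosome maintenance, read 5.88, 5.98 and 5.78 against 7.25, 6.87 and 6.62 (difference 1.04). Both had groups that did not overlap, with differences of 0.97 and 1.18 without replicate 3. NDRG1, a gene known to respond to low oxygen and stress, read 7.92, 8.20 and 8.50 against 8.83, 9.28 and 9.08, and its other probe sets differed by 0.40 (0.19) and 0.32 (0.24). SELENOP1, which carries selenium, read 9.28, 8.95 and 8.76 against 10.06, 9.66 and 9.59, and its 2 other probe sets differed by 0.56 (0.64) and 0.28 (0.31). For NDRG1 and SELENOP1, then, the probe sets agreed in direction. SBSPON, which encodes a secreted protein with a thrombospondin repeat, differed by 0.98 (1.05), and C26H6ORF125 by 0.69 (0.60).

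Some large upward differences rested on single probe sets or single arrays. SLC35F2, of a family of nucleotide sugar transporters, read log2 4.65, 6.16 and 5.58 on the controls and 7.92, 8.26 and 9.22 under the minus lens. This was the largest difference among the named genes, 3.01 (SE 0.67, adjusted p = 0.585), and 2.63 without replicate 3. On the plus lens arrays SLC35F2 read 8.39, 8.71 and 6.25. DPF3, a subunit of a chromatin remodelling complex, differed by 2.20 (1.99) at one probe set and by -1.32 (-0.58) at another, so no direction is given for the gene. RPS24, a ribosomal protein, differed by 0.79 (0.73) and by -0.50 (-0.40) at its 2 probe sets, and SAMD12 by 0.82 (0.71), 0.00 (0.06) and -0.14 (-0.25) at its 3. PTTG1IP2 read 8.28, 8.64 and 8.46 against 10.18, 8.69 and 11.58, so its difference of 1.69 was 0.98 without replicate 3, and its other probe set differed by -0.06 (-0.07). NEB, which encodes the muscle protein nebulin, differed by 0.52 (0.65) at its brightest probe set and by 2.47 (2.36), 0.09 (-0.19) and -0.18 (-0.18) at the others.

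On the lower side, SLC7A2, a carrier of cationic amino acids such as arginine, had the largest difference among the named genes. It read log2 7.42, 7.48 and 7.95 on the controls and 5.39, 4.38 and 5.46 under the minus lens, with all treated arrays far below the controls. The difference was -2.54 (SE 0.37, adjusted p = 0.275), and -2.73 without replicate 3. On the plus lens arrays SLC7A2 read 6.62, 6.57 and 7.64. CD180, a Toll-like receptor relative of immune cells, read 6.58, 6.04 and 6.11 against 4.20, 5.15 and 3.48, with a difference of -1.97 (SE 0.37, adjusted p = 0.516), and -1.57 without replicate 3. Its plus lens readings of 6.31, 5.99 and 6.38 lay within the control range or close to it. Only 3 of 27 microglial and leukocyte markers were measured, and the other 2 differed by 0.17 (0.40) for CD74 and -0.02 (-0.07) for CSF1R; these were named after their values were seen. NFAT5, which switches on genes under osmotic stress, read 4.49, 4.45 and 4.48 against 2.08, 3.26 and 1.65. Its treated level lay below the filter, where the array gives no reliable size, and the difference was -2.15, and -1.81 without replicate 3.

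PTCH1, the receptor and a target of Hedgehog signals, had closely grouped readings below the controls. It read log2 9.54, 9.63 and 9.67 on the controls and 9.02, 9.11 and 9.20 under the minus lens (difference -0.50, SE 0.10, adjusted p = 0.516), and 9.76, 9.66 and 9.77 under the plus lens. Without replicate 3 its difference was -0.55. HSPA8, the constitutive HSP70 chaperone, read 13.10, 12.87 and 13.02 against 12.50, 11.64 and 11.77 (difference -1.02, SE 0.21, adjusted p = 0.521), and -0.93 without replicate 3. ACAP3, which switches off ARF proteins of membrane traffic, read 7.98, 8.05 and 7.87 against 7.24, 7.28 and 7.29, with the treated arrays almost equal. KLF11, a Krüppel-like transcription factor, read 5.95, 5.58 and 5.56 against 5.14, 4.84 and 5.09 (difference -0.68, and -0.71 without replicate 3), and 6.72, 6.57 and 6.56 under the plus lens. The KLF11 arrays of the minus lens lay below those of both other groups, and a brighter probe set differed by -0.39 (-0.37).

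Several bright lower genes act at membranes and synapses. SYT1, the calcium sensor of vesicle release, differed by log2 -0.83, -0.89 and -1.14 at its 3 probe sets, and by -0.46, -0.60 and -0.56 without replicate 3. The brightest read 12.63, 11.78 and 12.32 on the controls and 11.79, 11.79 and 10.65 under the minus lens. The probe sets shared their direction, and replicate 3 was the lowest array. DMXL2, a synaptic vesicle protein that regulates the proton pump, differed by -0.99 (-0.83) at one probe set and 0.02 (-0.13) at another. AP3S1, a subunit of the AP-3 sorting adaptor, differed by -0.68 (-0.58), ATP9B, a relative of lipid flippases, by -0.97 (-0.99), and ZDHHC14, which attaches palmitate to proteins, by -0.78 (-0.57). CUL3, a ubiquitin ligase scaffold, differed by -0.77 (-0.78) and FOCAD by -1.25 (-1.13), but a second FOCAD probe set differed by 0.15 (-0.54). RICTOR, a core subunit of mTOR complex 2, read 9.24, 9.33 and 9.70 against 8.58, 8.95 and 8.50, and its difference of -0.75 was -0.66 without replicate 3. RBM10, a splicing factor, read 10.47, 10.54 and 10.96 against 9.90, 10.03 and 9.33. Of the 35 genes named in these paragraphs by p or size, 20 had other tested probe sets, and 23 of those 29 sets pointed the same way with all arrays and 25 without replicate 3.

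Glucagon and the immediate early genes are among the molecules tied to lens sign in this layer. GCG, the glucagon precursor, read log2 9.46, 9.73 and 10.49 on the controls and 9.13, 9.26 and 8.55 under the minus lens. Each treated array lay below each control, but the spread was wide, with a difference of -0.92 (SE 0.28, adjusted p = 0.683), and -0.70 without replicate 3. A second GCG probe set differed by -0.85 (-0.62). EGR1 read 8.26, 8.94 and 8.21 against 7.84, 7.41 and 7.94 (difference -0.74, SE 0.29, adjusted p = 0.683), and -0.85 without replicate 3. On the plus lens arrays EGR1 read 7.35, 7.94 and 6.98, and the direct difference between the lenses was 0.30. Of 24 immediate early genes measured, 15 were lower, where 54.6% of all genes were, and 9 higher. Without overlap 3 were lower and 1 higher, where 5.15% and 5.13% of all genes were, and the median was -0.10 with or without replicate 3. SIK1, a kinase induced by cyclic AMP, differed by -1.18, DUSP4, a MAP kinase phosphatase, by -0.81 and NR4A2, an orphan nuclear receptor, by -0.38. Without replicate 3 these were -0.78, -0.64 and -0.25. The 1 gene higher without overlap, GADD45A, differed by 0.54 (0.53) and was named after its values were seen. None of the 24 passed.

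No amacrine peptide passed. VIP, vasoactive intestinal peptide, read log2 10.16, 9.61 and 9.36 on the controls and 9.11, 9.62 and 7.94 under the minus lens. The groups overlapped, and the difference of -0.82 was -0.35 without replicate 3. PENK, the enkephalin precursor, read 13.41, 13.41 and 13.61 against 13.39, 13.30 and 13.22 (difference -0.17, SE 0.10, and -0.13 without replicate 3). PNOC, the nociceptin precursor, differed by -0.57 (-0.41) and SSTR5, a somatostatin receptor, by -0.52, and -0.54 without replicate 3. Over 23 peptide, receptor and processing genes, 13 were lower and 10 higher with or without replicate 3. Of all genes 54.6% were lower, and 45.7% without replicate 3. The list median was -0.16, and -0.11 without replicate 3. Without overlap 4 were lower and 1 higher, where 5.15% and 5.13% of all genes were. The 1 higher was the peptide gene NTS, at 0.43 (0.24), named after its values were seen. CHAT, which makes acetylcholine, read 2.73, 6.50 and 6.71 against 2.50, 6.32 and 5.28, with 1 very dim array in each group. Its difference was -0.62 (SE 1.18), and -0.91 without replicate 3, and its sign turned with single arrays, from -1.91 without control replicate 1 to 0.48 without minus lens replicate 1. CHRNB3, a nicotinic receptor subunit, differed by -0.52 (-0.35), among 13 cholinergic genes with a median of -0.11 (-0.12).

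With all arrays, more genes of inhibitory and excitatory transmission lay lower than higher, mostly by small amounts. Of all genes 54.6% were lower with all arrays and 45.7% without replicate 3. SLC32A1, which loads GABA and glycine into vesicles, read log2 12.30, 12.58 and 12.39 on the controls and 12.12, 12.19 and 11.70 under the minus lens. The groups did not overlap, and its difference of -0.42 was -0.27 without replicate 3. GAD1 differed by -0.14, and -0.16 without replicate 3. Of 10 genes for GABA and glycine synthesis and transport, 8 were lower, and the median of -0.20 was -0.04 without replicate 3, when 6 were lower. Of 7 GABA and glycine receptor genes 5 were lower, with a median of -0.04. Without replicate 3, 3 were lower and 4 higher, with a median of 0.00. Only GABRA2 of these had groups that did not overlap with all arrays. It read 9.42, 9.33 and 9.36 against 9.03, 9.05 and 8.94 (difference -0.36, and -0.33 without replicate 3). On the excitatory side 21 of 28 genes were lower. Without overlap 4 were lower and none higher, where 5.15% and 5.13% of all genes were, and without replicate 3 these were 5 and 1, where 8.23% and 13.0% of all genes were. The list had a median of -0.07, and -0.08 without replicate 3. GRIA3, an AMPA receptor subunit, differed by -0.46 (-0.41) at its brightest probe set and by -0.58 (-0.52) and -1.08 (-0.93) at the others. GRIN2A, an NMDA receptor subunit, read 8.15, 8.08 and 8.18 against 7.63, 7.50 and 6.33, so its difference of -0.98 was -0.57 without replicate 3. GRM8, a metabotropic receptor that damps release, differed by -0.43 (-0.41), and SHANK2, a postsynaptic scaffold, by -0.24 (-0.28). Of the 7 that were higher, the kainate receptor subunit GRIK1 had the largest difference, 0.81 (0.85), with overlapping groups. GRIK1 is also on the list of bipolar markers, and it was named after its values were seen. None of these genes passed.

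Dopamine and retinoic acid genes did not share a direction with each other. DRD5 and DRD1, receptors that raise cyclic AMP, differed by log2 -0.28 and -0.97, and by -0.18 and -0.46 without replicate 3, among 9 measured dopamine, serotonin and melatonin genes with a median of -0.14 (-0.18). Of 16 retinoic acid genes 13 were higher, where 45.4% of all genes were, with a median of 0.16, and without replicate 3 this was 10 of 16 and 0.12. CRABP1, which binds retinoic acid in the cell, read 6.52, 6.52 and 6.50 on the controls and 6.83, 6.93 and 7.08 under the minus lens, and 6.65, 6.34 and 6.66 under the plus lens. RBP4, the retinol carrier, read 4.56, 4.32 and 5.05 against 7.45, 5.48 and 5.48, with replicate 1 far above the other treated arrays and a difference of 1.49 (1.82). Among the few that lay lower were the enzyme genes ALDH1A3 and CYP26A1. ALDH1A3, which makes retinoic acid, read 9.04, 9.05 and 8.87 against 8.57, 8.32 and 8.79 (difference -0.43, and -0.54 without replicate 3), and differed by 0.18 under the plus lens. CYP26A1, which breaks it down, read 5.55, 6.73 and 6.41 against 5.66, 4.17 and 4.02. The CYP26A1 groups overlapped, with a difference of -1.61 (-1.31), and -1.85 under the plus lens. None passed.

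**Figure D3:**
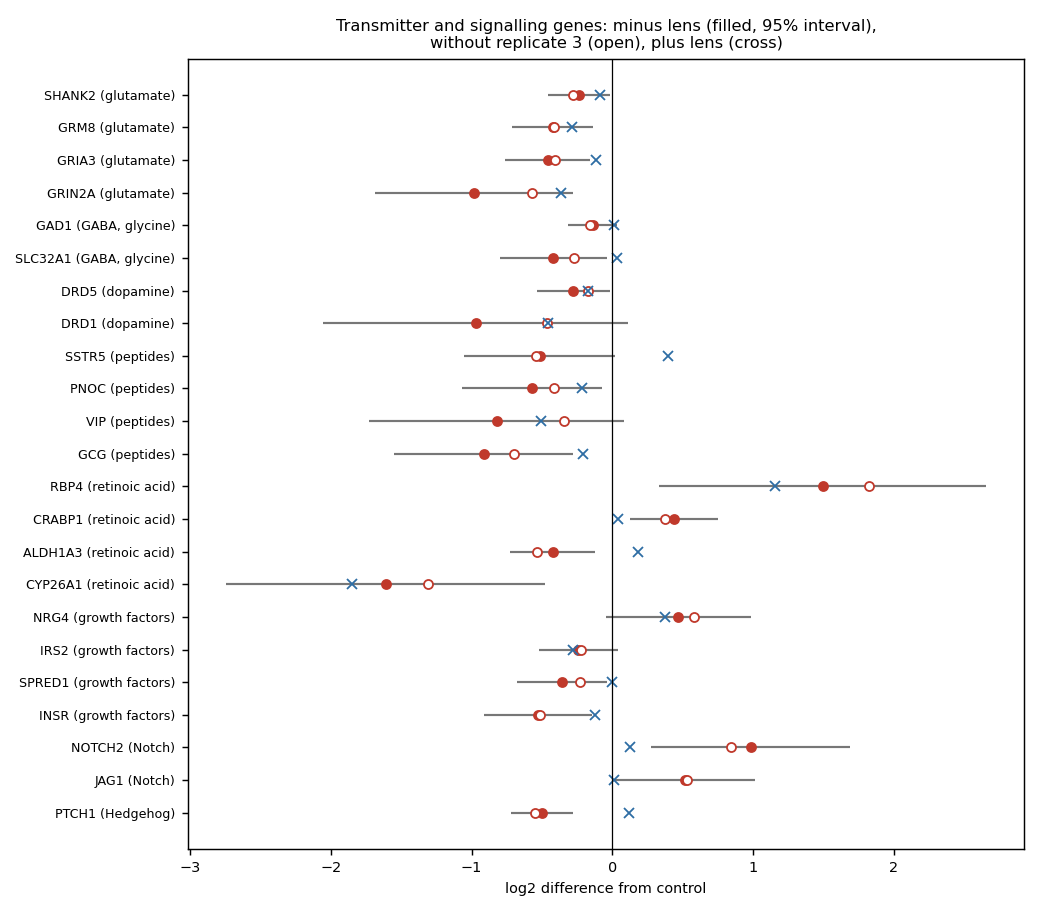
Log2 difference from control of the transmitter and signalling genes named by rule with an unadjusted p under 0.1: minus lens (filled, line is the 95% interval), minus lens without replicate 3 (open) and plus lens (cross), each gene at its brightest probe set. The transmitter genes shown lie left of 0, VIP, GRIN2A and DRD1 move towards 0 without replicate 3, and plus lens crosses share the controls. The rule takes up to 4 genes per list by smallest p. It leaves out GRIK1 (0.81) and NTS (0.43), which lay higher, and GRID1, CACNG2 and SCG2, which lay lower.

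Apart from GFRA1 without replicate 3, no growth signalling gene passed. INSR, the insulin receptor, read log2 8.67, 8.49 and 8.73 on the controls and 8.42, 7.82 and 8.07 under the minus lens (difference -0.53, and -0.51 without replicate 3). SPRED1, a brake on RAS signalling, differed by -0.36 (-0.23), and IRS2, an insulin receptor substrate, by -0.24 (-0.22), while NRG4, a ligand of the EGF receptor family, differed by 0.47 (0.58). Of 38 insulin, FGF, EGF and neurotrophin genes, 26 were lower with or without replicate 3, where 54.6% and 45.7% of all genes were. The median was -0.10, and -0.09 without replicate 3. BMP and TGF-beta genes had the lowest median of the lists in the plot of list medians, -0.25 over 28 genes. Without replicate 3 it was -0.120, and the dopamine, Hedgehog and cholinergic lists lay lower, at -0.176, -0.140 and -0.124. Of the 28 BMP and TGF-beta genes 17 were lower, and 22 without replicate 3, where 54.6% and 45.7% of all genes were. Only 1 was lower without overlap, where 5.15% of all genes were, and 2 without replicate 3, where 8.23% were. BMP7 differed by -0.80, and -0.45 without replicate 3, and BMP2, a factor studied in lens-treated chick eyes, read 4.58, 5.02 and 3.94 against 4.23, 4.58 and 4.75, with overlapping groups. NOTCH2, a Notch receptor, read 6.40, 6.54 and 6.60 against 7.48, 7.24 and 7.77, but its other probe set differed by -0.40 (-0.01). JAG1, a Notch ligand, differed by 0.52 (0.53). WNT5A differed by -0.27 (-0.31) and FZD3, a WNT receptor, by -0.35 (-0.21). Of 28 WNT genes 19 were lower, and 16 without replicate 3, where 54.6% and 45.7% of all genes were. Among them the 6 measured frizzled genes were all lower, and 4 of 6 were lower without replicate 3. Besides GFRA1, only LIFR and GFRA3 of the 17 genes on the GDNF list were measured. LIFR is a cytokine receptor and not a member of the GDNF family. LIFR and GFRA3 each differed by -0.23 with all arrays, with overlapping groups. Without replicate 3 they differed by -0.46 and -0.51, with groups that did not overlap, where 8.23% of all genes were lower without overlap.

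The clearest shift of a gene list was in cytosolic ribosomal proteins, the structural proteins of the ribosome. Of 60 measured, 55 lay higher, where 45.4% of all genes did, and 23 lay higher without overlap, where 5.13% of all genes did. The median was log2 0.35, against -0.03 over all genes. Without replicate 3 the median was 0.47, with 57 of 60 higher, where 54.3% of all genes were, and 42 higher without overlap, where 13.0% of all genes were. Both ribosomal subunits held it, with 18 of 21 small subunit and 36 of 38 large subunit genes higher, and 19 and 37 without replicate 3. RPL37A read 9.90, 10.21 and 9.70 on the controls and 10.58, 10.51 and 10.48 under the minus lens, RPS15 differed by 0.66 (0.77) and RPL22 by 0.49 (0.47). The list as a whole did not separate the groups: relative to the control mean, it averaged -0.07, 0.20 and -0.13 on the controls and 0.46, 0.39 and 0.13 on the minus lens arrays, so control replicate 2 lay above minus lens replicate 3. None of the 60 passed, with all arrays or without replicate 3.

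Respiratory chain genes lay higher to a lesser degree. Of 62 respiratory chain and ATP synthase genes 50 were higher, where 45.4% of all genes were, and 7 were higher without overlap, where 5.13% of all genes were, with a median of log2 0.17. Without replicate 3 these were 55, where 54.3% of all genes were, and 31, where 13.0% were, with a median of 0.27. COX4I1, of complex IV, read 10.99, 11.08 and 10.78 on the controls and 11.31, 11.38 and 11.13 under the minus lens, UQCRHL, of complex III, differed by 0.45 (0.51) and NDUFA4 by 0.53 (0.60). NDUFB3, of complex I, differed by 0.31 (0.26) at one probe set and -0.56 (-0.38) at another. Complex I had 27 of 34 genes higher, complex IV 6 of 7 and ATP synthase 9 of 10, and without replicate 3 these were 30, 6 and 9. On minus lens replicate 3 the list mean was -0.07, within the control range of -0.11 to 0.14, against 0.27 and 0.25 on the other treated arrays. Mitochondrial ribosomal proteins had a median of 0.08, and 0.12 without replicate 3, with MRPL13 at 0.50 (0.58) and MRPL53 at 0.47 (0.30). Of 23 glycolytic genes 16 were lower, and 11 without replicate 3, where 54.6% and 45.7% of all genes were. Their median was -0.07, and 0.01 without replicate 3. HK2, a hexokinase, differed by -0.89 (-0.47) and LDHB, a lactate dehydrogenase subunit, by -0.55 (-0.34). Hypoxia and oxidative stress genes were higher in 25 of 40, and in 29 without replicate 3, where 45.4% and 54.3% of all genes were. Among them were FTH1, which stores iron, at 0.31 (0.34) and HIF1A, the oxygen-regulated transcription factor, at 0.20 (0.16).

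Chaperones lay lower, most of all on replicate 3. Of 48 heat shock and chaperonin genes 33 were lower, where 54.6% of all genes were, with a median of log2 -0.18. Without replicate 3 the median was -0.06, with 29 lower, where 45.7% of all genes were. Without overlap 2 were higher and 1 lower, where 5.13% and 5.15% of all genes were. Without replicate 3 these were 5 and 1, where 13.0% and 8.23% of all genes were. Averaged over the list, the treated arrays stood at 0.09, -0.23 and -0.49 and the controls at -0.07, 0.08 and -0.01. Replicate 1 therefore lay with the controls and replicate 2 below them. In the HSP70 family 6 of 8 genes were lower, and 7 without replicate 3, with medians of -0.38 and -0.22. All 3 HSP90 genes were lower either way, with medians of -0.77 and -0.39. HSP90AA1, the inducible HSP90, read 13.71, 14.05 and 13.77 against 13.78, 13.13 and 12.31, and its difference of -0.77 was -0.39 without replicate 3. DNAJA1, a co-chaperone of HSP70, differed by -1.43 and -1.14 at its 2 probe sets, and by -0.58 and -0.71 without replicate 3. HSPA4L differed by -0.72 (-0.51). HSPB9, a small heat shock protein, lay the other way, with 6.28, 5.45 and 6.41 against 7.39, 6.79 and 8.11. Of 66 splicing factors 45 were lower, where 54.6% of all genes were, with a median of -0.11. Without replicate 3, 34 were lower, where 45.7% of all genes were, with a median of -0.02. PRPF8 and PRPF6, core spliceosome proteins, differed by -0.41 (-0.33) and -0.40 (-0.28), SNRNP48 by 0.40 (0.37), and CDC5L by 0.53 (0.45) at its brightest probe set and by -0.26 (-0.33) and -0.13 (-0.13) at others. Proteasome genes had a median of -0.01, and 0.13 without replicate 3. With all arrays 18 of 40 were higher, and 30 without replicate 3, where 45.4% and 54.3% of all genes were. PSMG4, an assembly factor, read 8.10, 8.08 and 8.13 against 8.46, 8.69 and 8.59.

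**Figure D4:**
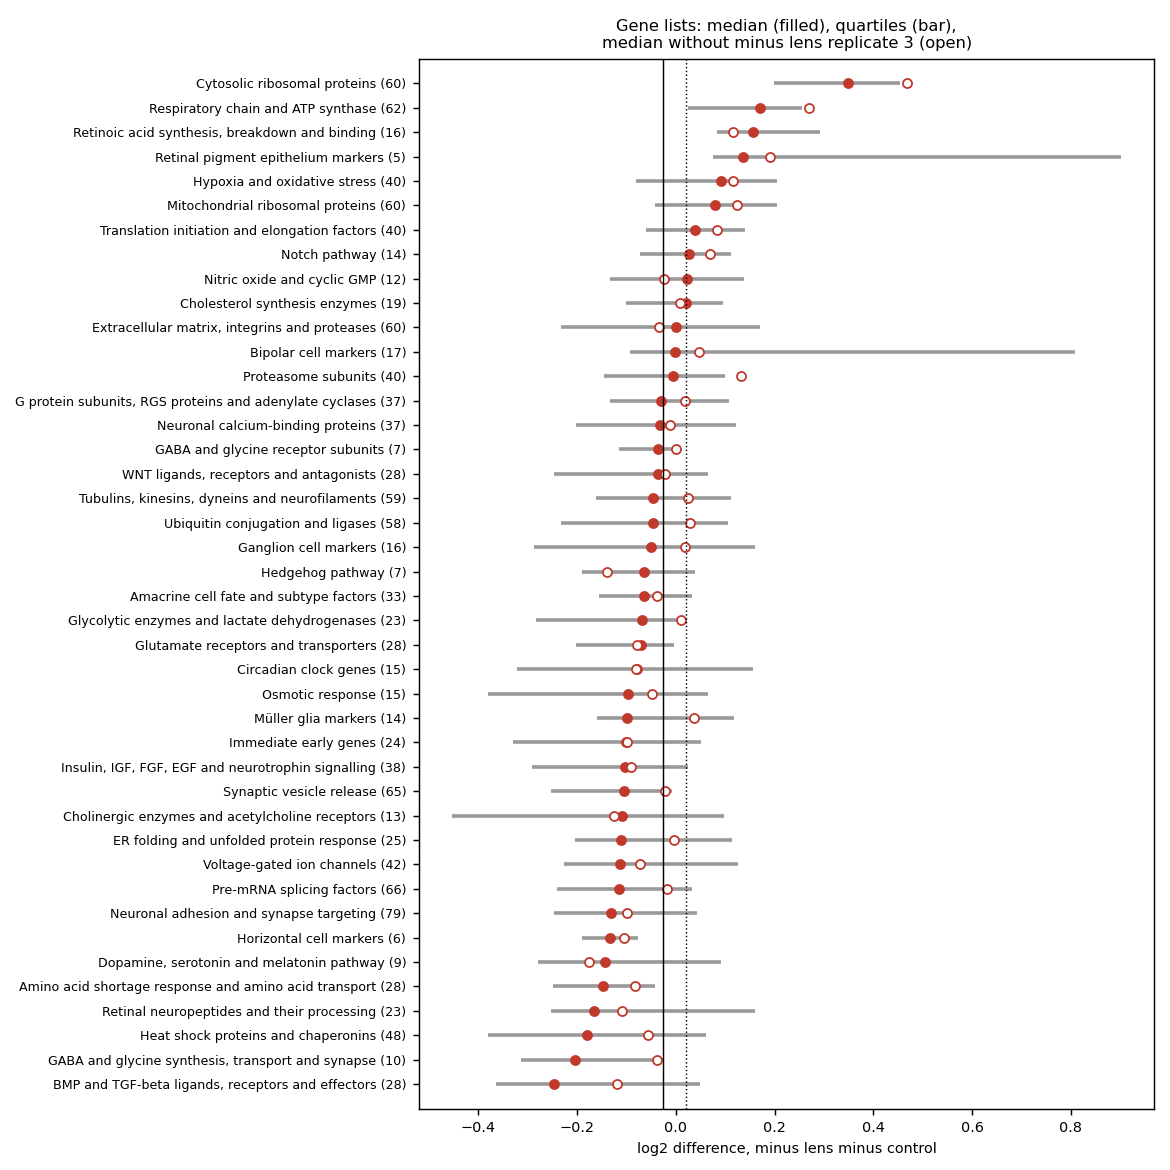
Median log2 difference, minus lens minus control, of the gene lists with at least 5 measured genes (number in brackets): filled point with all arrays, grey bar from the first to the third quartile of the genes, open point without minus lens replicate 3; solid and dotted vertical lines are the medians over all genes with and without that array. Ribosomal proteins, at 0.35 and 0.47, lie farthest to the right, and heat shock, splicing and synaptic lists move towards the lines when replicate 3 is left out.

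The synaptic release machinery also lay lower with replicate 3 and near the middle without it. Of 65 genes 50 were lower, where 54.6% of all genes were, with a median of log2 -0.10. Without replicate 3, 38 were lower, where 45.7% of all genes were, with a median of -0.02. DNM1, the dynamin that recovers vesicles, read 11.61, 11.86 and 11.58 on the controls and 11.33, 11.41 and 11.10 under the minus lens. RAB3B, a vesicle GTPase, differed by -0.88 (-0.77), and UNC13B, a priming factor, by 0.69 (0.49). The adhesion median moved less. Of 79 genes for neuronal adhesion and synapse targeting, 56 were lower, where 54.6% of all genes were, with a median of -0.13. Without replicate 3, 54 were lower, where 45.7% of all genes were, with a median of -0.10. CNTN4, a contactin of axon guidance, read 9.59, 9.43 and 9.52 against 9.21, 9.19 and 8.84, and the 4 measured contactins were all lower, with a median of -0.44, and -0.47 without replicate 3. NEGR1, an adhesion protein of neurites, read 10.80, 10.68 and 10.68 against 10.03, 9.95 and 10.32, EPHB2 differed by -0.58 (-0.44) and SEMA6D by -0.43 (-0.26).

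Most amino acid genes lay lower. Of 28 genes of amino acid transport and the response to amino acid shortage, 23 were lower, where 54.6% of all genes were. The median was log2 -0.15. Without replicate 3, 20 were lower, where 45.7% of all genes were, with a median of -0.08. Without overlap 3 were lower and 2 higher, where 5.15% and 5.13% of all genes were. Without replicate 3 these were 5 and 4, where 8.23% and 13.0% of all genes were. SLC7A2 led these, and TARS, which charges threonine, differed by -0.49 (-0.55). ASNS, which makes asparagine, read 6.31, 7.01 and 6.72 on the controls and 7.51, 7.70 and 7.05 under the minus lens, and 6.48, 6.48 and 6.35 under the plus lens. Its difference of 0.74 was 0.93 without replicate 3. The other 4 that lay higher, named after their values were seen, were SLC38A1 at 0.20 (0.17), WARS at 0.23 (0.44), SLC43A2 at 0.20 (0.26) and SLC1A4 at 0.18 (0.28). Of these 4 only SLC38A1 had groups that did not overlap, joined by WARS without replicate 3. Besides NFAT5, osmotic response genes included SLC12A2, a chloride importer, at -0.63 (-0.31), AQP9, a water and glycerol channel, at 1.69 (0.98) and SGK1 at -0.58 (-0.24). AQP9 read 5.70, 5.22 and 4.36 against 5.02, 7.13 and 8.21, so its groups overlapped.

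Matrix and fate genes showed single genes rather than list shifts. COL9A3, a chain of collagen IX, read log2 7.02, 5.68 and 7.93 on the controls and 8.34, 8.46 and 8.28 under the minus lens. The controls spread over more than 2 log2 units, and the difference was 1.48, and 1.53 without replicate 3. COL8A1 differed by -0.60 (-0.67), and COL11A1 by 0.35 (0.29) at its brightest probe set and by 0.50 (0.35), 0.24 (0.23) and -0.03 (-0.15) at the others, among 60 matrix genes with a median of 0.00 (-0.03). Of 33 amacrine fate factors 23 were lower, where 54.6% of all genes were, with a median of -0.06 (-0.04). Of these, 4 were lower without overlap, where 5.15% of all genes were. Without replicate 3 there were 4 higher and 6 lower without overlap, where 13.0% and 8.23% of all genes were. ELAVL2, a neuronal RNA-binding protein, differed by -0.54, and -0.69 without replicate 3, TCF4 by -0.40 (-0.54) and ZEB2 by -0.28 (-0.16). The clock genes CRY1 and CRY2, repressors of the circadian loop, differed by -0.44 (-0.23) and -0.33 (-0.19), and PER2, another, by 0.15 (0.13). Channel genes included KCNMB4 at 0.43 (0.43), SCN3A at -0.46 (-0.53) and KCNV1 at -0.34 (-0.33). Of 37 G protein, RGS and adenylate cyclase genes 20 were lower, and 14 without replicate 3, where 54.6% and 45.7% of all genes were. Among them GNG4 differed by 0.55 (0.66) and the adenylate cyclase ADCY2 by -0.70 (-0.31). The 4 measured adenylate cyclases were all lower, with a median of -0.26, and -0.20 without replicate 3.

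Most further lists had medians close to that of all genes, with single members apart from it. Of all genes 45.4% were higher and 54.6% lower, and without replicate 3 these were 54.3% and 45.7%. The exception among these lists was endoplasmic reticulum folding, whose median lay lower with replicate 3 and near the middle without it. Of 40 translation factors 23 were higher, with a median of log2 0.04, and 0.08 without replicate 3, with EIF3H at 0.33 (0.30) and EEF1D at 0.20 (0.26). Of 25 endoplasmic reticulum folding genes 16 were lower, with a median of -0.11, and -0.00 without replicate 3, with SEC61B, a subunit of the protein channel, at 0.49 (0.60), EDEM2 at 0.36 (0.40) and DERL2 at 0.22 (0.22). A second EDEM2 probe set differed by -0.18 (0.24). Although the folding median was lower, 4 folding genes were higher without overlap and 0 lower, where 5.13% and 5.15% of all genes were. Without replicate 3 these were 9 and 2, where 13.0% and 8.23% of all genes were. Of 58 ubiquitin genes 32 were lower, with a median of -0.05, and 0.03 without replicate 3. In that list UBE4B, a ligase that extends ubiquitin chains, read 6.43, 6.80 and 7.02 on the controls and 6.42, 5.76 and 4.27 under the minus lens, so its difference of -1.26 was -0.66 without replicate 3, and CUL4A read 6.72, 7.39 and 7.27 against 7.67, 7.65 and 7.66. Of 59 cytoskeletal genes 32 were lower, with a median of -0.05, and 0.02 without replicate 3, with DYNLT3, a dynein light chain, at 1.16 (1.32) and DCLK1, a microtubule-binding kinase, at -0.48 (-0.28). The 37 calcium-binding genes had a median of -0.03, and -0.01 without replicate 3, with RCAN2, an inhibitor of calcineurin, at -0.82 (-0.47). RCAN2 was the lowest of the list, but without overlap 4 were higher and 1 lower, where 5.13% and 5.15% of all genes were. Without replicate 3 these were 8 and 1, where 13.0% and 8.23% of all genes were. The 12 nitric oxide and cyclic GMP genes had a median of 0.02, and -0.02 without replicate 3, with NOS1AP, an adaptor of neuronal nitric oxide synthase, at -0.49 (-0.34) and PDE10A at -0.40 (-0.26). The 19 cholesterol genes had 0.02, and 0.01 without replicate 3, with FDFT1, an enzyme of squalene synthesis, at 0.28 (0.21). None of the genes in these lists passed.

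**Figure D5:**
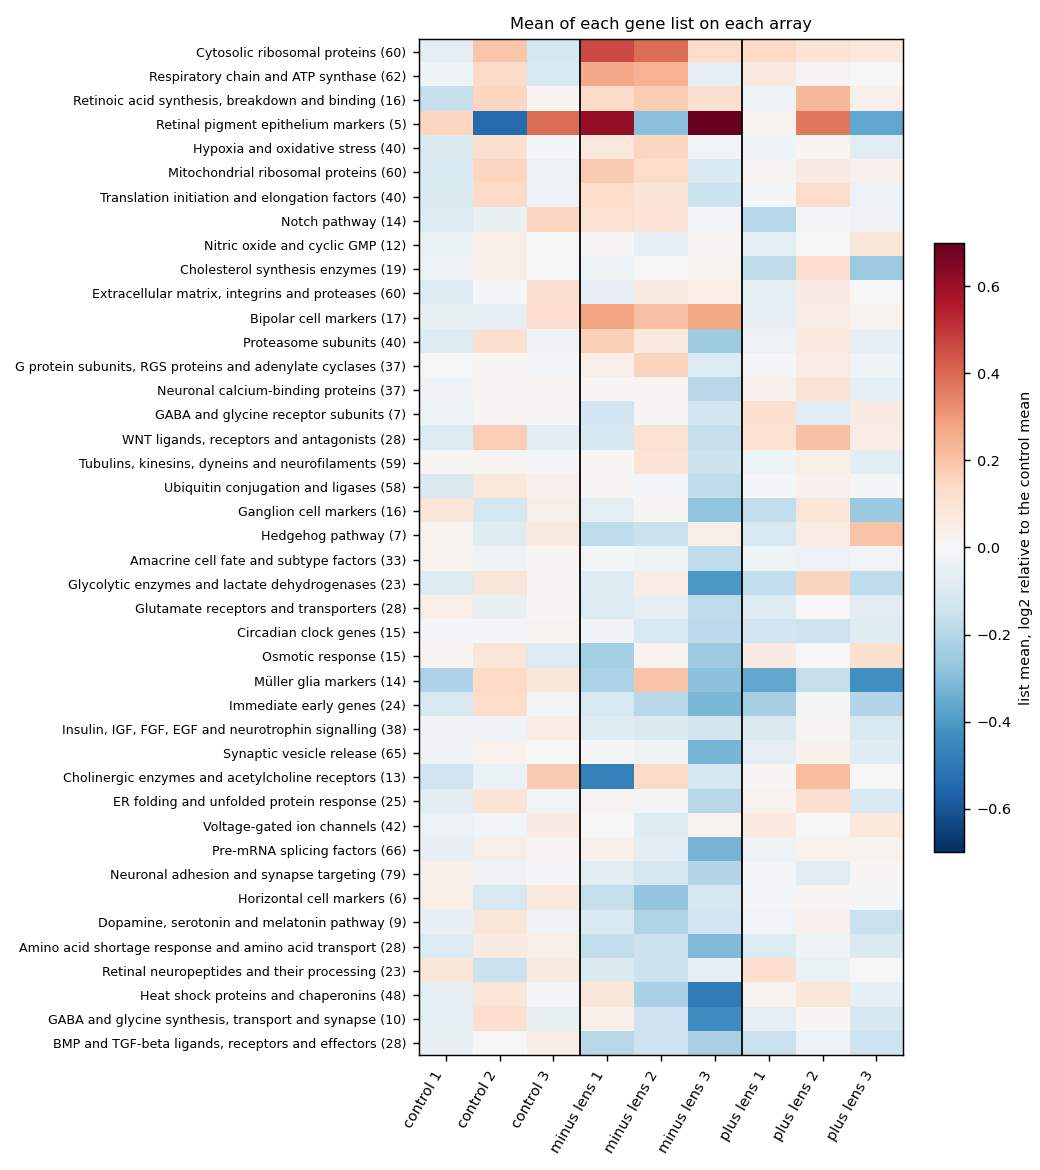
Mean of each gene list on each of the 9 arrays, as log2 relative to the mean of the controls, with red for higher and blue for lower; the colour scale ends at 0.7 either way. Ribosomal and respiratory lists are reddest on minus lens replicates 1 and 2, and replicate 3 is the bluest minus lens array for heat shock, synaptic and splicing lists.

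Summed signals of glial, ganglion cell and horizontal cell markers overlapped between the groups. Müller glia, which run through the layer, had 14 of 29 markers measured, with summed signal of log2 14.57 to 15.06 on the controls and 14.29 to 15.02 on the minus lens arrays and a median difference of -0.10, which was 0.04 without replicate 3. Ganglion cell markers, 16 of 28 measured, summed to 12.63 to 12.83 against 12.65 to 12.99. Of the 16, 9 were lower and 7 higher, where 54.6% of all genes were lower, with a median of -0.05. Without replicate 3, 7 were lower and 9 higher, where 45.7% of all genes were lower, with a median of 0.02. NEFL, a neurofilament, differed by -1.08 (-0.69) and THY1 by -0.38 (-0.36). Horizontal cell markers, 6 of 16 measured, were all lower with all arrays, and 5 of 6 without replicate 3, with a median of -0.13 (-0.10). Endothelial, oligodendrocyte and red blood cell markers, 4 of 21, 4 of 14 and 3 of 23 measured, had overlapping sums too.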

How the data were processed

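RNA from 9 captured samples was hybridised to 9 arrays. The authors deposited 1 linear intensity per probe set and array, made with GCRMA per the submitters' processing notes (its version is not given in the sources used here). This method brings arrays to a common distribution, so each difference is relative to other transcripts, and it compresses dim signal. Log2 was taken with no pseudocount. Groups were compared in limma 3.58.1 under R 4.3.3 (lmFit, eBayes with intensity trend; 6 residual and 2.64 prior degrees of freedom), with 9 arrays in 1 fit, two-sided, and Benjamini-Hochberg adjustment over 12975 probe sets at 0.05. The platform annotation gave 1 symbol for 9978 of the tested probe sets, several for 47 and none for 2950. Code was tested on simulated data. No arrays held identical values. Same-numbered control and minus lens arrays deviated with r of -0.06, 0.16 and -0.00, so numbers were not taken as pairs. For arrays, their number limits precision.

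Genes were named if past the threshold; up to 12 per direction by smallest p with non-overlapping groups and means of at least log2 4; up to 8 per direction by size with means of at least log2 8; up to 4 per list by smallest p, printed at an unadjusted p under 0.1; and a fixed set (EGR1, GCG, VIP, PENK, SST, TH, CHAT, GAD1, PAX6, BMP2, FOS, PER2, GFRA1, GNG13, VSX1, OTX2, NFAT5, NEB, SLC7A2). The 48 lists and these genes were chosen with earlier results of these data known. Not every list member under that limit is printed above: MTHFD2 differed by -0.73 (-0.67) and SEC61G by 0.31 (0.39). Families within lists were also counted, and those printed were picked after their values were seen. Of those not printed, cadherins had 4 higher and 6 lower and kinesins 7 higher and 4 lower. Lists are described by counts and medians, without a test of the list.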

Additional observations from a re-analysis of the deposited data

Results flagged for a closer look

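KLF11 differed between the lenses, which share the controls. Its log2 difference from control was -0.68 under the minus lens and 0.92 under the plus lens, and the direct difference, minus lens minus plus lens, was -1.60 (SE 0.15, adjusted p = 0.0246 over 12975 probe sets in limma). Without minus lens replicate 3 the adjusted p of that difference was 0.113. All 3 minus lens arrays lay below and all 3 plus lens arrays above the controls. The probe set is not the brightest of the gene, and the other differed by -0.39 under the minus lens.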

How the results depend on the processing

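The count of probe sets past the threshold was 1 with all arrays and 0 with no filter on dim probe sets, with a filter at log2 6 (where LOC425969 was not tested), after median centring and with only the 6 arrays compared, and it was 2 with arrayWeights (GFRA1 and LOC425969). Leaving out 1 array gave 0 to 4: 0 without any 1 control or without plus lens replicate 1 or 3, 4 without minus lens replicate 1 (HSPA8, SOUL, LOC425969 and 1 without a name), NFAT5 alone without minus lens replicate 2 and GFRA1 alone without minus lens replicate 3. Beside these counts of 0, 575 (without control replicate 3) to 1237 (no filter) probe sets had an unadjusted p under 0.05. Over 19 settings LOC425969 passed in 9, with adjusted p of 0.0113 to 0.244, and GFRA1 passed in 2 of 20, with 0.0202 to 0.756. With replicate number as a replicate block, 1 probe set passed and 961 had an unadjusted p under 0.05. The numbers do not pair the arrays. The split of probe sets at an unadjusted p under 0.05, 380 higher and 532 lower, was 507 and 495 after quantile normalisation, 463 and 527 after median centring and 552 and 574 with arrayWeights. The log2 difference of 3 genes turned sign: PAX6 was 0.036 after quantile normalisation, 0.024 after median centring, 0.031 with arrayWeights and -0.044 to 0.047 when 1 array was left out; BMP2 was -0.0064 as log2 of the value plus 16 and -0.28 to 0.26 when 1 array was left out; CHAT was -1.91 to 0.48 when 1 array was left out. Another probe set of the gene had the opposite sign for RPS24 (-0.50), DPF3 (-1.32), PTTG1IP2 (-0.064), SAMD12 (-0.14), FOCAD (0.15), DMXL2 (0.019), NEB (-0.18), KCNA4 (-0.28), COL11A1 (-0.028), NOTCH2 (-0.40), SGK1 (0.062), NDUFB3 (-0.56), PSMA6 (-0.16), PSMB7 (-0.078), CDC5L (-0.26 and -0.13) and EDEM2 (-0.18). KCNA4, PSMA6 and PSMB7 are given only here, and the brightest probe set of each lay higher. The cause of these opposite signs was not tested. Of the alternatives for list medians, 882 moved by less than 1 SD between arrays and 30 by more.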
